A study of Homo sapiens with 25 samples.

Results

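The muscle miRNAs miR-1, miR-133a, miR-133b and miR-206 were followed in small RNA libraries labelled as A2780 cells, a line established from a human ovarian carcinoma. The members are the 4 unstarred rows of these miRNAs among 1033 human rows of the mature table, and the 6 rows of their precursors, hsa-mir-1-1, hsa-mir-1-2, hsa-mir-133a-1, hsa-mir-133a-2, hsa-mir-133b and hsa-mir-206, among 557 human rows of the precursor table. All rows were taken at any level. A2780 cells overexpressed the primary transcript of miR-450a from a lentivirus (miR-450a cells), overexpressed the primary transcript of miR-450b from a lentivirus (miR-450b cells), or carried the empty lentiviral vector (empty vector cells), so that all 3 groups hold a lentiviral vector. Each group has 3 libraries. The labels call them biological replicates and do not state separate transductions, and the p-values below therefore measure the spread between these libraries, which may be technical. The authors deposited the share that each miRNA takes of all miRNA reads of a library. Shares were multiplied by 1000000 and are written as RPM, and the sequencing depth behind them is unknown. In bulk libraries such as these, fewer cells that express a miRNA and less of it per cell cannot be told apart.

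miRNAs are short RNAs that guide Argonaute proteins to messenger RNAs, mostly through pairing of the seed, bases 2 to 8 counted from the 5′ end. miR-1, miR-133a, miR-133b and miR-206 are the classical myomiRs of heart and skeletal muscle. miR-1 and miR-206 are known to promote muscle differentiation, miR-133 is known for its part in the growth of muscle precursors, and miR-206 is largely restricted to skeletal muscle. Each miR-1 gene lies beside a miR-133a gene and is made from a shared primary transcript, while the genes of miR-206 and miR-133b form the third such pair.

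The mature sequences show which reads can be told apart. They were taken from RefSeq (GRCh38.p14), where all 4 members matched by name, and are written 5′ to 3′ with the seed in capitals.
miR-1: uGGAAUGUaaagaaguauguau
miR-206: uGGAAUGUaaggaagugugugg
miR-133a: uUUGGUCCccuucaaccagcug
miR-133b: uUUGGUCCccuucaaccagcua
The members form 2 seed groups, miR-1 with miR-206 (GGAAUGU) and miR-133a with miR-133b (UUGGUCC). Over their 22 bases, miR-206 differs from miR-1 by A11G, A17G, A21G and U22G, with the base of miR-1 first and positions counted from the 5′ end. miR-133b differs from miR-133a by 1 substitution at the last base, G22A. A read that lacks its last base, or carries a changed one, can therefore not be assigned to miR-133a or miR-133b with certainty, and values of miR-133b are uncertain for that reason.

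The hairpins show where the members lie and why the gene copies share a mature miRNA. In RefSeq (GRCh38.p14) the hairpin of mir-1-1 is at chr20:62554306-62554376 on the plus strand and that of mir-133a-2 at chr20:62564912-62565013 on the plus strand, 10535 bases apart, both within the long noncoding gene MIR1-1HG on the same strand. The hairpin of mir-1-2 is at chr18:21829004-21829088 and that of mir-133a-1 at chr18:21825698-21825785, both on the minus strand and 3218 bases apart. They lie within the long noncoding gene MIR133A1HG on the same strand and within the protein-coding gene MIB1, which runs on the plus strand. The hairpin of mir-133b is at chr6:52148923-52149041 on the plus strand within the long noncoding gene LINCMD1, and 4488 bases separate MIR206 from it. The 4 hairpins that make miR-1 and miR-133a follow, with the mature miRNA in capitals.
mir-1-1: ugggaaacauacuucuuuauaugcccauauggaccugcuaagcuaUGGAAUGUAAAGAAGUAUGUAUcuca
mir-1-2: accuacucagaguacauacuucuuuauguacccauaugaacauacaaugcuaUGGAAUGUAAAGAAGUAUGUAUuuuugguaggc
mir-133a-1: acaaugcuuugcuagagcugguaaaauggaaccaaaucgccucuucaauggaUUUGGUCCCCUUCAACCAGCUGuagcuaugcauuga
mir-133a-2: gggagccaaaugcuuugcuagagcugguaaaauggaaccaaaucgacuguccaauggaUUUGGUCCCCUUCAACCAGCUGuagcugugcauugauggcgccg
In each of them the mature miRNA lies in the 3′ arm and is identical between the copies, while the loop and the flanks differ.

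The miR-450a libraries stood apart from the rest, which touches every value of that group. Across the tested mature rows they correlated with the libraries of empty vector cells at r = 0.65 to 0.74 and with those of miR-450b cells at r = 0.72 to 0.74, against r = 0.89 to 0.96 between the miR-450b and empty vector libraries. The row of the SV40 miRNA miR-S1-3p had 47.8 to 73.4 RPM in miR-450a cells, 0 to 0.501 RPM in miR-450b cells and 0 to 0.267 RPM in empty vector cells. miR-450a stood at 8967 to 20745 RPM with its own vector, at 270 to 504 RPM in miR-450b cells and at 317 to 446 RPM in empty vector cells. miR-450b stood at 547 to 1544 RPM with its own vector, at 207 to 293 RPM in miR-450a cells and at 71.6 to 131 RPM in empty vector cells. miR-199a-5p, a mesenchymal miRNA, averaged 92.2 RPM in miR-450a cells, 40031 RPM in miR-450b cells and 46228 RPM in empty vector cells. That the miR-450a libraries come from the same cell line as the others rests on the labels and was not tested, which bears on what every miR-450a value below means. An effect of miR-450a and any further difference between these cells and the others cannot be told apart. The comparison of miR-450b cells with empty vector cells uses the miR-450a libraries for the estimate of the spread and for the level filter. That filter took the mean over all 9 libraries, so it also set which rows were tested and counted. In a fit without the miR-450a libraries, over the same filtered rows, miR-1 and miR-133a had the same changes and calls.

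miR-1, which is made from both mir-1-1 and mir-1-2, was lower in both kinds of overexpressing cells than in empty vector cells. It stood at 13.1, 13.1 and 9.59 RPM in miR-450a cells, at 40.3, 46.3 and 80.8 RPM in miR-450b cells, and at 233, 229.6 and 349 RPM in empty vector cells. The groups did not overlap in any of the 3 comparisons, with miR-450a cells lowest and empty vector cells highest. The means were 11.9 ± 2.03, 55.8 ± 21.9 and 271 ± 67.8 RPM for miR-450a cells, miR-450b cells and empty vector cells (SD, n = 3 each), so the mean of empty vector cells was 22.7 times that of miR-450a cells and 4.85 times that of miR-450b cells. On the log2(RPM + 10) scale, which understates the change of low miRNAs, miR-1 fell by 3.65 ± 0.28 in miR-450a cells (SE, limma adjusted p = 6.80e-07) and fell by 2.12 ± 0.28 in miR-450b cells (adjusted p = 2.44e-04), each against empty vector cells. The difference of miR-450a from miR-450b cells was -1.54 ± 0.28 (limma adjusted p = 7.86e-04), and it was -0.47 with a pseudocount of 100 RPM (adjusted p = 0.0229).

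miR-133a, made from mir-133a-1 and mir-133a-2 beside the miR-1 genes, had the same order of groups. It stood at 16.3, 10.3 and 6.57 RPM in miR-450a cells, at 38.7, 49.04 and 23.2 RPM in miR-450b cells, and at 419, 287 and 174 RPM in empty vector cells. The groups did not overlap here either, but the lowest library of miR-450b cells lay close to the highest of miR-450a cells. The means were 11.03 ± 4.89, 37.0 ± 13.0 and 293 ± 122 RPM for miR-450a cells, miR-450b cells and empty vector cells (SD, n = 3 each), so the mean of empty vector cells was 26.6 times that of miR-450a cells and 7.93 times that of miR-450b cells. In the limma fit miR-133a fell by 3.79 ± 0.35 on the log2 scale in miR-450a cells (SE, adjusted p = 2.73e-06) and fell by 2.65 ± 0.35 in miR-450b cells (adjusted p = 2.12e-04), each against empty vector cells. The difference of -1.15 ± 0.35 between miR-450a and miR-450b cells passed (limma adjusted p = 0.0153) but no longer did so without miR-450a replicate 3 (-0.99, adjusted p = 0.0625), without miR-450b replicate 2 (-0.96, adjusted p = 0.0636) or with a pseudocount of 100 RPM (-0.30, adjusted p = 0.216).

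**Figure D1:**
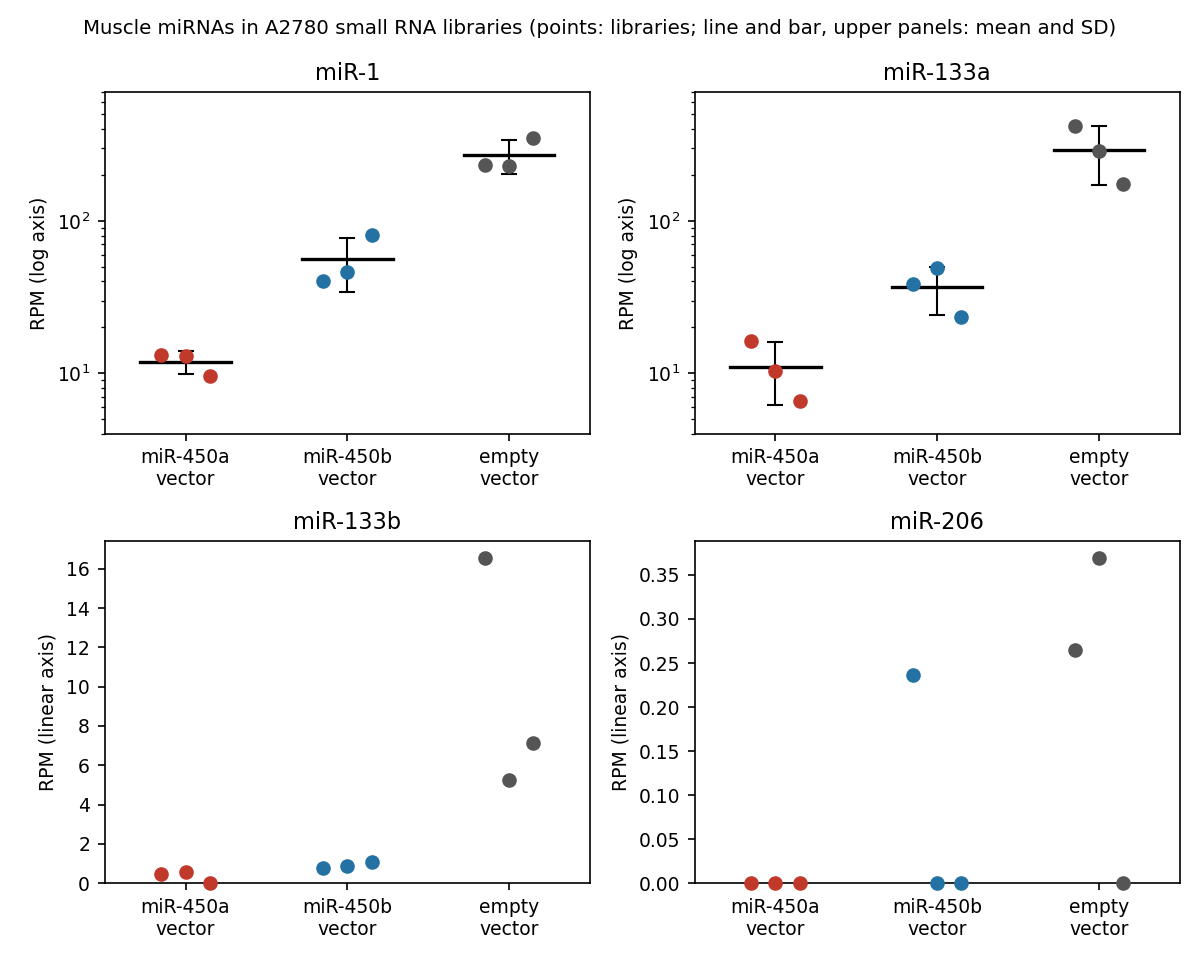
Level of miR-1, miR-133a, miR-133b and miR-206 in RPM in each library (points), in miR-450a cells, miR-450b cells and empty vector cells from left to right; the upper panels have log axes and show the mean and SD, the lower panels have linear axes from 0. miR-1 and miR-133a lie between 6.57 and 16.3 RPM in miR-450a cells, between 23.2 and 80.8 RPM in miR-450b cells and between 174 and 419 RPM in empty vector cells.

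Both tested members were thus called lower in all 3 comparisons, against a background of 18.5% of the 406 tested mature rows called lower for miR-450a against empty vector cells, 10.1% for miR-450b against empty vector cells and 18.5% for miR-450a against miR-450b cells. The share of rows whose groups did not overlap, with the first group lower, was 20.2%, 21.2% and 22.4% in the same order. In the same order of comparisons, the median log2 change over all tested mature rows was 0.44, -0.16 and 0.62. Ordered from the most negative change, miR-133a was number 17 and miR-1 number 19 of 406 for miR-450a against empty vector cells, and number 11 and number 16 for miR-450b against empty vector cells. For miR-450a against miR-450b cells, miR-133a was number 60 and miR-1 number 44. Both comparisons with empty vector cells share the same 3 libraries, so these are not separate observations of the level in empty vector cells. Median-of-ratios scaling moved the median of all rows to 0.05, -0.05 and 0.13 and the share of calls that were higher to 52.0%, 40% and 48.7%, against 66.7%, 30.5% and 69.4% with the shares as deposited. miR-1 then changed by -3.91, -1.99 and -1.93 and miR-133a by -4.04, -2.53 and -1.51, all called. Changes of low miRNAs shrink as the pseudocount grows. With a pseudocount of 100 RPM, those of miR-1 and miR-133a were -1.71 and -1.78 for miR-450a against empty vector cells and -1.24 and -1.48 for miR-450b against empty vector cells, and those calls held.

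Among the 1033 human rows by mean RPM, miR-1 was number 401 and miR-133a number 407 in miR-450a cells, miR-1 was number 246 and miR-133a number 269 in miR-450b cells, and miR-133a was number 156 and miR-1 number 161 in empty vector cells. The 4 members together made up 0.00233 ± 6.87e-04% of miRNA reads in miR-450a cells, 0.00938 ± 0.00128% in miR-450b cells and 0.0574 ± 0.00826% in empty vector cells (SD, n = 3 each).

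miR-133b, which shares the miR-133a seed and comes from the chromosome 6 pair, was far lower than miR-133a in every library. It stood at 0.479, 0.570 and 0 RPM in miR-450a cells, at 0.747, 0.866 and 1.07 RPM in miR-450b cells, and at 16.6, 5.25 and 7.14 RPM in empty vector cells. The groups did not overlap, although empty vector replicate 1 lay well above the other libraries of its group. The limma fit took rows with a mean of 10 RPM or more, and miR-133b at a mean of 3.63 RPM was not among them. The shares of rows with non-overlapping groups given above therefore do not cover it. A two-sided exact permutation test of log2(RPM + 10) gave p = 0.1 for each of the 3 comparisons, the smallest p that 3 against 3 allows, with differences of -0.88, -0.81 and -0.07 for miR-450a against empty vector cells, miR-450b against empty vector cells and miR-450a against miR-450b cells. In a limma fit with no filter, over 1054 rows and chosen after seeing the data, miR-133b was called for miR-450a against empty vector cells (adjusted p = 0.00587) and for miR-450b against empty vector cells (adjusted p = 0.0371). Of those 1054 rows, 341 were called, higher or lower, for miR-450a against empty vector cells. For miR-450b against empty vector cells, at most 69 mature rows were called in any alternative other than leaving out a library. miR-133b amounted to between 0% and 5.54% of miR-133a over the libraries, with means of 2.83%, 2.77% and 3.29% for miR-450a cells, miR-450b cells and empty vector cells. Its level thus followed that of miR-133a, from which 1 base separates it, and how many of its reads came from miR-133a was not tested.

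miR-206, the skeletal muscle member with the miR-1 seed, was close to 0 throughout. It was listed at 0 in the 3 libraries of miR-450a cells, at 0.236, 0 and 0 RPM in miR-450b cells and at 0.265, 0.370 and 0 RPM in empty vector cells. Values above 0 were present in 3 of 9 libraries, and the groups overlapped. The exact permutation test gave p = 0.4 for miR-450a cells and for miR-450b cells, each against empty vector cells, and p = 1.0 between miR-450a and miR-450b cells. At levels this low no difference between the groups was detectable. RefSeq lists 1 other mature miRNA with this seed, miR-613, and no row of that name was found in the mature table.

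The starred rows hold the lesser arm of each hairpin and were not part of the rule that chose the members. miR-133a* stood at 2.26, 1.71 and 0 RPM in miR-450a cells, at 3.90, 2.81 and 5.86 RPM in miR-450b cells, and at 18.7, 20.1 and 24.6 RPM in empty vector cells. The groups did not overlap and stood in the same order as for miR-133a itself. The mean of miR-133a*, 8.88 RPM, was below the filter, so the shares of non-overlapping rows do not cover it. The lesser arm made up 8.82 ± 7.71%, 11.6 ± 7.65% and 7.73 ± 4.18% of the reads of both miR-133a arms in miR-450a cells, miR-450b cells and empty vector cells (SD, n = 3 each), so the balance of arms differed by less than the spread between libraries. Unlike the mature miR-1, the lesser arms of miR-1 differ between the gene copies. miR-1-1* stood at 0, 0.223 and 0 RPM in miR-450a cells, at 0.472, 0 and 0.0715 RPM in miR-450b cells, and at 3.17, 0.411 and 1.24 RPM in empty vector cells. miR-1-2* reached 0, 0.433 and 0.829 RPM at most in the same order of groups. miR-133b* was listed at 0 in all 9 libraries, and miR-206* was above 0 in empty vector replicate 1 alone, at 0.0166 RPM.

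The precursor table assigns the reads to gene copies. hsa-mir-1-1 stood at 6.57, 6.72 and 4.80 RPM in miR-450a cells, at 20.5, 22.6 and 39.9 RPM in miR-450b cells and at 118, 114 and 173 RPM in empty vector cells. hsa-mir-133a-1 stood at 9.26, 5.99 and 3.28 RPM in miR-450a cells, at 21.3, 25.9 and 14.6 RPM in miR-450b cells and at 219, 153 and 99.4 RPM in empty vector cells. mir-1-2 and mir-133a-2 were nearly the same as their copies in every library. mir-1-2 held 49.4% to 51.6% of the reads of both mir-1 copies, and mir-133a-1 and mir-133a-2 were equal in 8 of 9 libraries within 1e-09 RPM. In every library the copies summed to the mature miRNA and its starred arms within 1e-09 RPM. Reads of a mature sequence that both copies encode cannot be assigned to 1 of them. Those reads do not show which of the chromosome 18 and chromosome 20 genes was expressed. Apart from the small share of reads that differ between copies, the rows repeat the mature values rather than adding to them. The lesser arms of both mir-1 copies were low but above 0 in empty vector cells. There miR-1-1* stood at 0.411 to 3.17 RPM and miR-1-2* at 0.0889 to 0.829 RPM. The row of hsa-mir-133b equalled that of miR-133b in 9 of 9 libraries. hsa-mir-206 was at most 0.370 RPM in any library.

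Of the 6 precursors, 4 reached the mean of 10 RPM that the limma fit required, while hsa-mir-133b and hsa-mir-206 did not. The 4 that passed were below 10 RPM in miR-450a cells and passed through the other groups. All 4 were called lower in each comparison by limma, with log2 changes of -3.32 to -3.16 for miR-450a against empty vector cells, -2.40 to -1.95 for miR-450b against empty vector cells and -1.23 to -0.92 for miR-450a against miR-450b cells. The background of precursors called lower was 19.4%, 11.6% and 17.6% of 284 in the same order. Between miR-450a and miR-450b cells, the calls of mir-133a-1 and mir-133a-2 were lost without miR-450a replicate 3 (-0.78 for both), without miR-450b replicate 2 (-0.79 for both), with no filter (-0.92 for both) and with a pseudocount of 100 RPM (-0.18 for both).

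miR-1 and miR-133a had the same order of groups but did not vary together within them. The ratio of miR-1 to miR-133a was 0.808, 1.27 and 1.46 in miR-450a cells, 1.04, 0.945 and 3.48 in miR-450b cells, and 0.556, 0.801 and 2.001 in empty vector cells. The groups overlapped, and this plain ratio within a library does not depend on how the libraries are scaled. Adding 10 RPM to each, as in the tests that follow, makes the ratio depend on the scaling. It also draws the ratio towards equal levels where both miRNAs are low, as in miR-450a cells. These tests were not repeated with another scaling. On the log2 scale with 10 RPM added to each, the ratio differed between miR-450a cells and empty vector cells by 0.14 (two-sided exact permutation p = 0.9), between miR-450b cells and empty vector cells by 0.53 (exact permutation p = 0.5) and between miR-450a and miR-450b cells by -0.39 (exact permutation p = 0.8). The difference of 0.14 was -0.24 without empty vector replicate 1, and that of -0.39 was 0.09 without miR-450b replicate 3. In each of the 3 groups the library with replicate number 3 had the highest ratio. Over the 9 libraries log2(RPM + 10) of the pair correlated at r = 0.92, and after the group means were removed at r = -0.65, a description of libraries that share their groups and their scaling. The labels do not say that a replicate number marks a shared day or batch.

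**Figure D2:**
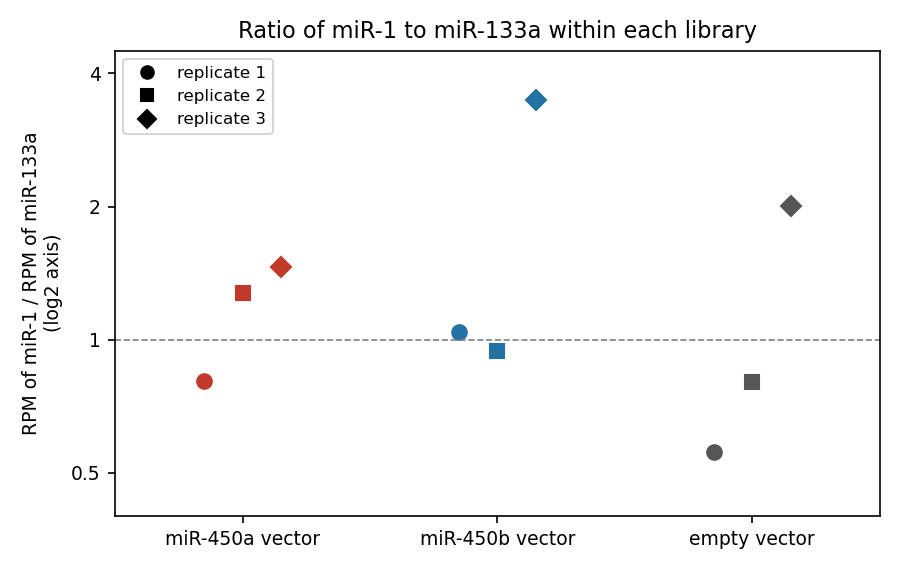
Ratio of the RPM of miR-1 to the RPM of miR-133a in each library (log2 axis), in miR-450a cells, miR-450b cells and empty vector cells from left to right and the replicate number as the shape of the point; the dashed line marks equal levels. The ratios run from 0.556 to 3.48, the groups overlap, and replicate 3 (diamond) is highest in each group at 1.46, 3.48 and 2.001.

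Neighbouring miR-1 and miR-133a genes are known to be made from shared host transcripts, and the promoters of both hosts are shown as background. Whether the host transcripts changed in these cells was not tested. They run from 250 bases before to 50 bases after the annotated start in RefSeq (GRCh38.p14), MIR1-1HG at chr20:62550203-62550502 on the plus strand and MIR133A1HG at chr18:21831357-21831656 on the minus strand. Capitals mark the longest run of bases that both share.
MIR1-1HG: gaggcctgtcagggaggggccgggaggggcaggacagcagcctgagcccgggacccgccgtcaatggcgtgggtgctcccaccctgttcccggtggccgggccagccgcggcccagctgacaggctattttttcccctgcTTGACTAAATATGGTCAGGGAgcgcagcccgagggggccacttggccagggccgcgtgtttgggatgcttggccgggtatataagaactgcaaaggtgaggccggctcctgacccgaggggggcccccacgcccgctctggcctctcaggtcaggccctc
MIR133A1HG: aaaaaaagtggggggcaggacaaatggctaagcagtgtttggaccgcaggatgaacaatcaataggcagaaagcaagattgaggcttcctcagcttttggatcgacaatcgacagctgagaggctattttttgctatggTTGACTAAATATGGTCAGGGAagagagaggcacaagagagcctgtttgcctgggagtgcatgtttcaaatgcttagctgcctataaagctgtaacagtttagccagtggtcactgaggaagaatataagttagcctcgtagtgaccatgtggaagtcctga
The shared run is 21 bases long, ends 89 bases before the start of MIR1-1HG and 90 bases before that of MIR133A1HG, and was found in no other of the 34943 RefSeq promoters on either strand. E-boxes (CANNTG, the same on both strands), the sites read by myogenic factors of the MyoD family, numbered 2 in MIR1-1HG and 4 in MIR133A1HG, and 0 of them overlapped the run. An E-box was present in 68.7% of all promoters, at least 2 in 36.5% and at least 4 in 5.59%. The CArG box of serum response factor was searched as CCWWWWWWGG and the MEF2 site as YTAWWWWTAR, on both strands. Here W is A or T, Y is C or T and R is A or G. Exact matches numbered 0 in both promoters, against 1.30% and 3.00% of all promoters with a match. Near matches were not counted. The shared run holds CTAAATATGG, which departs from the CArG pattern only in the T after its leading C. These bases, which both promoters hold, depart from the MEF2 pattern only in the G after their last T. MIR133A1HG also holds CTATTTTTTG, which departs from the MEF2 pattern only in its last T. These matches describe the sequence and say nothing of which factors acted in these cells.

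The miRNAs whose log2(RPM + 10) followed miR-1 most closely over the 9 libraries, among 401 other human mature miRNAs, were miR-20b (r = 0.98), miR-335-5p (r = 0.98), miR-20b* (r = 0.97), miR-335-3p (r = 0.97) and miR-106a* (r = 0.97). miR-20b and miR-106a belong to a cluster on the X chromosome, and miR-335 lies in the imprinted gene MEST. miR-20b averaged 159 ± 43.7 RPM in miR-450a cells, 449 ± 124 RPM in miR-450b cells and 1333 ± 54.9 RPM in empty vector cells (SD, n = 3 each). The miRNAs most like miR-133a were miR-145 (r = 0.98), miR-143* (r = 0.98), miR-145* (r = 0.97), miR-363 (r = 0.94) and miR-20b (r = 0.93). miR-143 and miR-145 are made together and are abundant in smooth muscle and mesenchymal cells. miR-145 averaged 4.98 ± 1.04 RPM in miR-450a cells, 41.9 ± 11.3 RPM in miR-450b cells and 480.1 ± 307 RPM in empty vector cells. These correlations are descriptions over 9 libraries in 3 groups, which share the library scaling.

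**Figure D3:**
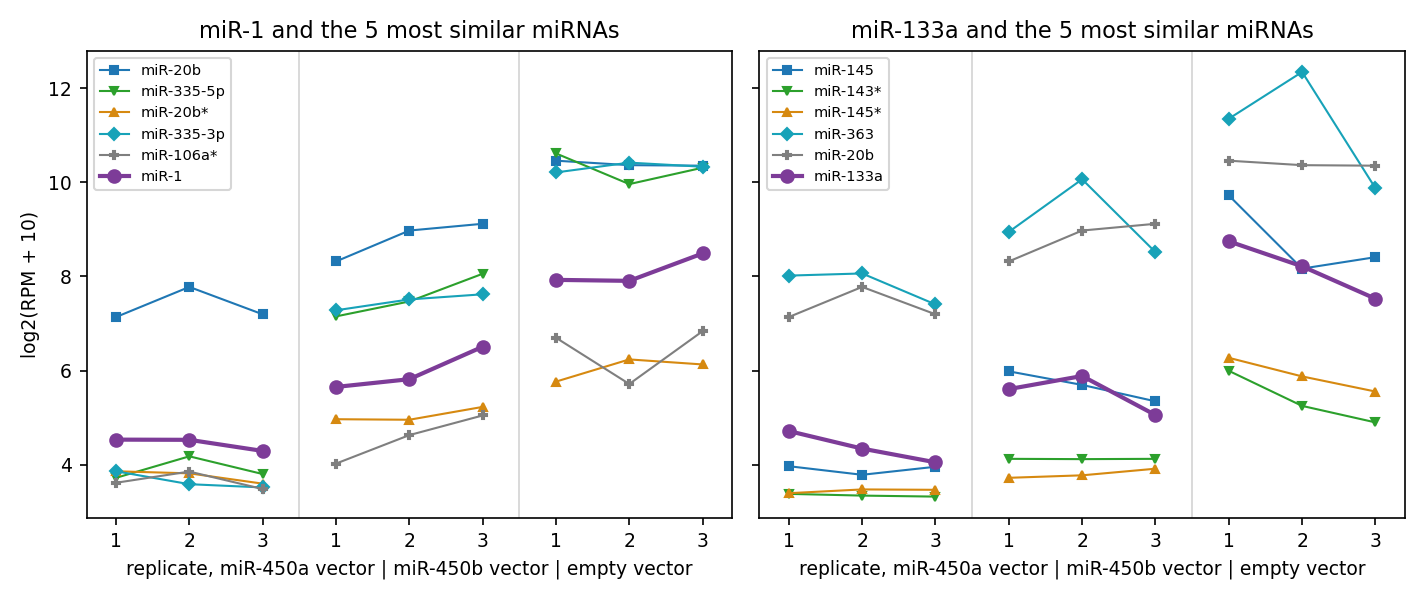
log2(RPM + 10) in each of the 9 libraries for miR-1 (left, purple) and miR-133a (right, purple) with the 5 miRNAs of the highest Pearson r to each; vertical lines separate miR-450a, miR-450b and empty vector cells. All profiles have their lowest group at miR-450a cells and their highest at empty vector cells, with r from 0.97 to 0.98 for miR-1 and from 0.93 to 0.98 for miR-133a.

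Of other miRNAs of heart and skeletal muscle, the 2 tested did not share this order of all groups. In both overexpressing groups, however, every value of miR-499 lay below those of empty vector cells. Of a list of 4, miR-208a and miR-208b, which lie in genes of cardiac myosin heavy chains, were at most 0.787 RPM in any library and were not tested. miR-486, a muscle and blood miRNA from an intron of ANK1, stood at 153, 74.4 and 96.4 RPM in miR-450a cells, at 24.0, 16.5 and 19.4 RPM in miR-450b cells and at 22.1, 39.7 and 34.8 RPM in empty vector cells. In the limma fit it rose in miR-450a cells by 1.45 ± 0.28 against empty vector cells (SE, log2, adjusted p = 0.00105) and by 1.93 ± 0.28 against miR-450b cells (adjusted p = 1.38e-04), and was at -0.48 ± 0.28 in miR-450b cells against empty vector cells (adjusted p = 0.316). miR-499, from the myosin gene MYH7B, stood at 21.04, 20.2 and 20.1 RPM in miR-450a cells, at 9.92, 9.63 and 22.1 RPM in miR-450b cells and at 28.9, 27.2 and 41.4 RPM in empty vector cells. It fell in miR-450b cells against empty vector cells by 0.86 ± 0.23 (limma adjusted p = 0.0271), a call lost without miR-450b replicate 1 (-0.74) or 2 (-0.73), without empty vector replicate 3 (-0.71), with no filter and in a fit of the compared groups only (both -0.86). For miR-450a against empty vector cells it was at -0.47, with a 95% interval of -0.97 to 0.04 (limma adjusted p = 0.107), which passed with median-of-ratios scaling (-0.76, adjusted p = 0.0159). Between miR-450a and miR-450b cells miR-499 was at 0.39 (limma adjusted p = 0.160), which passed without miR-450b replicate 3 (0.62, adjusted p = 0.0312).

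In the list of smooth muscle and mesenchymal miRNAs, 8 of 8 rows were called lower by limma in miR-450a cells against empty vector cells, at log2 changes of -9.06 to -4.86 (miR-143 -6.27, miR-145 -4.86, miR-199a-3p -8.65, miR-199a-5p -8.88, miR-199b-3p -8.58, miR-199b-5p -6.14, miR-214-3p -9.06 and miR-214-5p -8.12). The same 8 were lower in miR-450a cells than in miR-450b cells, at -9.03 to -1.77, of which the change of miR-145, -1.77, was lost once the pseudocount was 100 RPM (-0.43). For miR-450b against empty vector cells 2 of 8 were lower and 0 higher, and those were miR-143 and miR-145. miR-143 stood at 36.6, 30.003 and 26.4 RPM in miR-450a cells, at 666, 540.5 and 889 RPM in miR-450b cells and at 2854, 2585 and 4153 RPM in empty vector cells. It fell in miR-450b cells by 2.18 ± 0.29 and miR-145 fell by 3.09 ± 0.37 (SE, log2, limma adjusted p = 2.60e-04 and 1.35e-04). The rows of miR-199a, miR-199b and miR-214 were at -0.45 to 0.93 in the same comparison, none of them called. Of these, miR-199b-5p at 0.93 passed with median-of-ratios scaling (1.10) and without empty vector replicate 3 (1.26). The arms miR-199a-3p and miR-199b-3p share their sequence, and miR-143 and miR-145 share a primary transcript, so these counts are not counts of separate genes. The summed level of the list was 417 to 572 RPM in miR-450a cells, 205687 to 251394 RPM in miR-450b cells and 179572 to 258338 RPM in empty vector cells, so the sum moved with miR-1 and miR-133a in miR-450a cells but not in miR-450b cells.

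**Figure D4:**
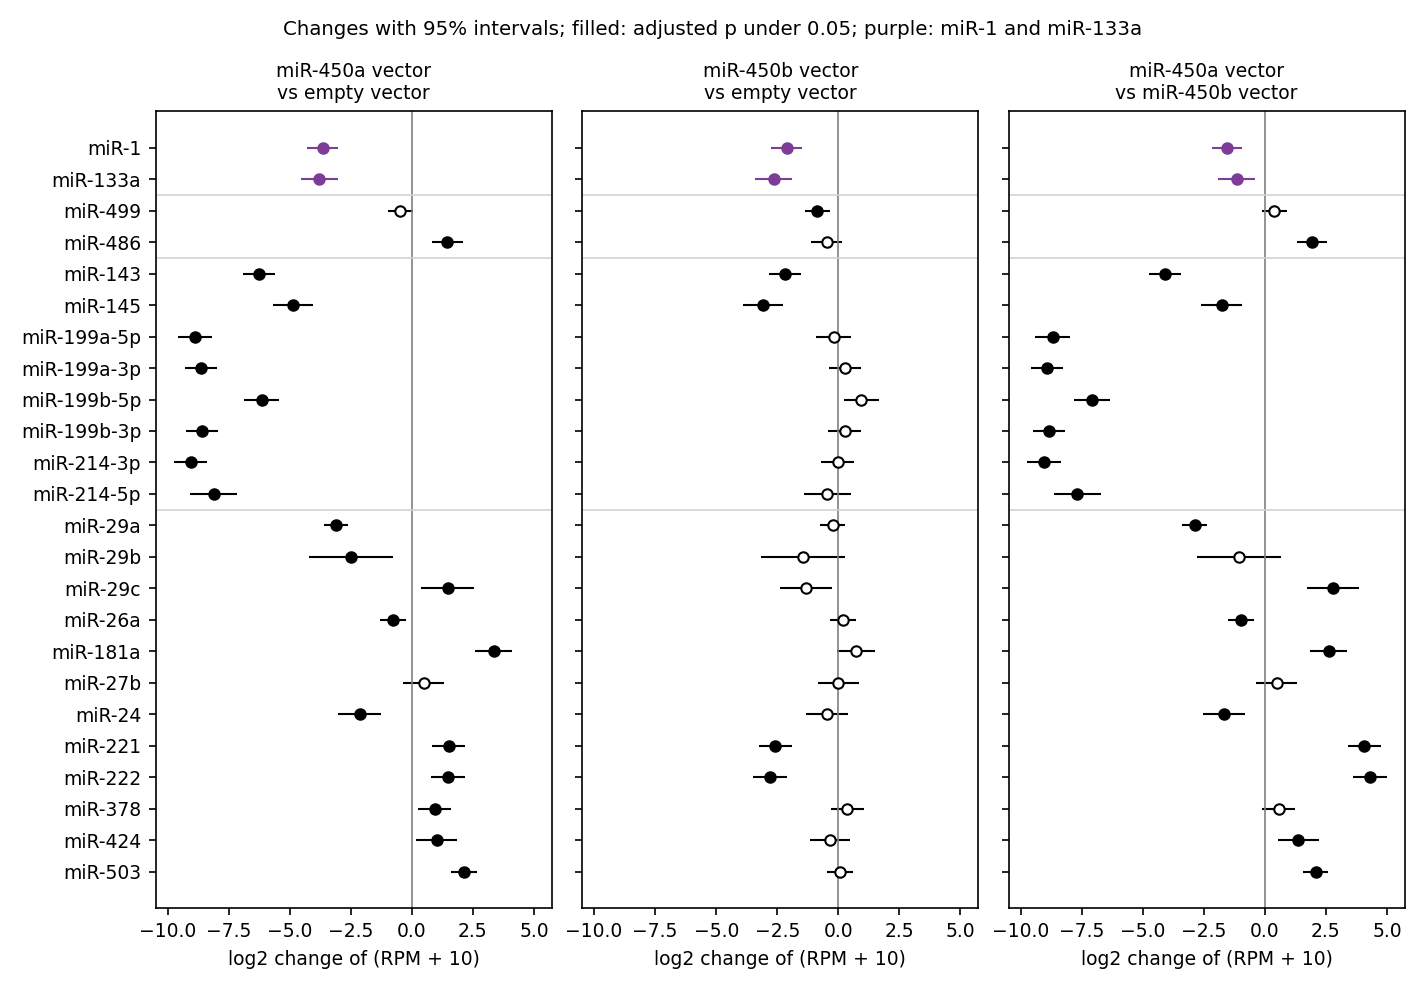
log2 change of RPM + 10 with its 95% interval in the 3 comparisons, for miR-1 and miR-133a (purple) and the listed miRNAs of heart and skeletal muscle, smooth muscle and mesenchyme, and muscle differentiation (black), separated by grey lines; filled points have an adjusted p under 0.05. For miR-450b against empty vector cells, miR-1 at -2.12 and miR-133a at -2.65 stand with miR-143, miR-145, miR-221 and miR-222 below -2, while the miR-199 and miR-214 rows lie between -0.45 and 0.93.

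A list of 12 more widely expressed miRNAs that have been described in muscle differentiation moved in both directions. The background of mature rows called higher was 36.9% for miR-450a against empty vector cells, 4.43% for miR-450b against empty vector cells and 41.9% for miR-450a against miR-450b cells. For miR-450a against empty vector cells 7 of 12 rose and 4 fell by limma, with a median log2 change of 0.98, while the median over all tested rows was 0.44. miR-181a rose by 3.35 ± 0.34, miR-503 by 2.14 ± 0.24, miR-222 by 1.49 ± 0.32 and miR-221 by 1.50 ± 0.31, whereas miR-29a fell by 3.11 ± 0.23 and miR-24 by 2.13 ± 0.39 (SE). The other 5 calls were lost without single libraries. That of miR-26a (-0.78) was lost without empty vector replicate 2 (-0.63), and that of miR-29b (-2.49) without empty vector replicate 1 (-1.56) or miR-450a replicate 1 (-2.29) or 3 (-2.20). That of miR-29c (1.46) was lost without empty vector replicate 2 (1.42) or 3 (1.24) or miR-450a replicate 2 (0.85), and that of miR-378 (0.93) without empty vector replicate 1 (0.63) or miR-450a replicate 1 (0.82) or 3 (0.91). That of miR-424 (1.02) was lost without empty vector replicate 2 (0.78) or 3 (1.02), miR-450a replicate 2 (0.79) or 3 (1.09) or miR-450b replicate 2 (1.02). The calls of miR-29c (1.02), miR-378 (0.49) and miR-424 (0.58) were also lost with median-of-ratios scaling, and those of miR-29b, miR-29c and miR-424 with no filter. miR-27b, at 0.49, passed without miR-450a replicate 2 (0.97).

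For miR-450b against empty vector cells 0 of the 12 rose and 2 fell, miR-221 by 2.58 ± 0.31 and miR-222 by 2.81 ± 0.32 (SE, log2), against a median over the list of -0.29. These neighbours on the X chromosome rose in miR-450a cells and fell in miR-450b cells, so their order of groups differed from that of miR-1 and miR-133a. miR-29b (-1.44) passed without empty vector replicate 2 (-2.34), and miR-29c (-1.32) passed without miR-450a replicate 2 (-1.32) and in the fit of the compared groups only. The other 8 were between -0.47 and 0.73 and were not called. In miR-450a against miR-450b cells 6 of 12 rose by limma (miR-222 by 4.29, miR-221 by 4.08, miR-29c by 2.78, miR-181a by 2.62, miR-503 by 2.08 and miR-424 by 1.36) and 3 fell (miR-29a at -2.88, miR-24 at -1.67 and miR-26a at -0.97). The call of miR-424 was lost with median-of-ratios scaling (0.76). There miR-27b (0.49) passed without miR-450a replicate 2 (0.97) and miR-378 (0.56) without empty vector replicate 1 (0.56).

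Markers of other cell types were read from the same libraries. The summed level of 6 blood rows was 113 to 294 RPM in miR-450a cells, 135 to 316 RPM in miR-450b cells and 128 to 357 RPM in empty vector cells, and 0 of 3 tested rows were called by limma in any comparison. That sum was carried by miR-142, of which miR-142-3p averaged 120, 134 and 147 RPM in the same order. miR-451 averaged 9.39, 10.7 and 31.5 RPM, at -0.94 and -0.86 in miR-450a and miR-450b cells against empty vector cells. miR-144, too low to be tested, stood at 0.263 to 1.33, 0 to 1.86 and 2.22 to 4.41 RPM. The means of miR-142-5p, miR-223 and miR-150 did not have this order of groups. Both arms of the endothelial miR-126 summed to 649 to 2226 RPM, 902 to 1389.6 RPM and 1032 to 1972 RPM in the same order, and neither was called. The 5 epithelial rows of the miR-200 family summed to 276 to 368 RPM, 87.9 to 152 RPM and 67.3 to 89.2 RPM, a sum carried by miR-200c, which rose in miR-450a cells by 2.05 ± 0.31 against empty vector cells (SE, limma adjusted p = 1.55e-04). miR-200c was at 0.84 in miR-450b against empty vector cells (limma adjusted p = 0.104), which passed without miR-450b replicate 3 (1.12). miR-141, the other tested row, averaged 20.02 RPM in miR-450a cells, 5.02 RPM in miR-450b cells and 11.2 RPM in empty vector cells, and its change of 0.52 in miR-450a against empty vector cells was not called (limma adjusted p = 0.115) but passed without empty vector replicate 1 (0.75). miR-200a, miR-200b and miR-429 had means of 2.77 to 7.32 RPM in miR-450a cells, 0.0838 to 0.774 RPM in miR-450b cells and 0.661 to 1.66 RPM in empty vector cells, so that the rows other than miR-200c were lowest in miR-450b cells. The neural rows, miR-9, miR-9* and miR-124, summed to 3156 to 4374 RPM in miR-450a cells, 122 to 199 RPM in miR-450b cells and 284 to 441 RPM in empty vector cells, nearly all of it miR-9 and miR-9*. miR-124 averaged 4.64 RPM in miR-450a cells, 7.28 RPM in miR-450b cells and 3.58 RPM in empty vector cells and was too low to be tested. The liver miRNA miR-122 stood at 4.44 to 18.7 RPM and the 6 rows of miR-302 and miR-367 summed to 0 to 10.8 RPM over the 9 libraries. miR-9 and miR-9* rose in miR-450a cells by 3.42 ± 0.32 and 3.07 ± 0.27 against empty vector cells (SE, the larger limma adjusted p = 3.44e-06). In miR-450b against empty vector cells they were called lower at -1.11 ± 0.32 and -1.04 ± 0.27 (limma adjusted p = 0.0395 and 0.0246). Both calls were lost with a pseudocount of 100 RPM (-0.77 and -0.23) and with no filter, that of miR-9 also with median-of-ratios scaling (-0.96) and in the fit of the compared groups only, and that of miR-9* also with the replicate block. That of miR-9 was lost without miR-450a replicate 1 (-1.11), miR-450b replicate 1 (-1.02) or 2 (-0.99) or empty vector replicate 2 (-1.19) or 3 (-0.87), and that of miR-9* without miR-450b replicate 1 (-1.04) or 2 (-0.99) or empty vector replicate 1 (-0.77). The part of these differences in the levels of miR-1 and miR-133a was not tested.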

How the data were processed

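Small RNA libraries of 9 A2780 samples were read as single reads after TRIzol extraction, per the labels' protocols. The authors deposited, for each mature miRNA and each precursor, the share (fraction) of all miRNA reads of a library. Each column summed to 1, so a miRNA's share also depends on all others, and no read counts or counting intervals can be given; the 95% intervals printed are those of limma and cover the spread between libraries. TopHat and Cuffdiff are named without role or version in the submitters' processing notes, and no miRNA aligner or build is given in the sources used here. Shares were multiplied by 1000000 (RPM). Rows that averaged 10 RPM or more across all 9 libraries, 406 mature and 284 precursor rows with viral rows included, were fitted as log2(RPM + 10) with limma 3.58.1 (trend) in R 4.3.3 over all 3 groups, with Benjamini-Hochberg adjustment over all rows and a threshold of 0.05. Rows too low for the fit, and the ratio of miR-1 to miR-133a, were compared by two-sided exact permutation tests in SciPy 1.17.1. Named were all members, their starred arms, the listed companions that passed this filter, and the 5 miRNAs of the highest Pearson r to each tested member. The members and lists were chosen with earlier results of these data known. Messenger RNA and PAR-CLIP libraries of the series were not analysed here.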

Additional observations from a re-analysis of the deposited data

How the results depend on the processing

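The calls of miR-1 and miR-133a against empty vector cells held in every alternative run, which were pseudocounts of 1 and 100 RPM, no filter or a mean of at least 100 RPM, median-of-ratios scaling, limma without trend, fits of only the groups compared, a replicate block and leaving out each library. Between miR-450a and miR-450b cells miR-1 held in all of these, while miR-133a was lost in the 3 settings named beside its value. The r of deviations from group means was -0.51 to 0.64 for equal and -0.55 to 0.64 for unequal replicate numbers. It was above 0.1 in 4 of 9 equal and 8 of 18 unequal pairs. Between miR-450a and miR-450b libraries, equal numbers gave 0.64, 0.48 and 0.03. Against empty vector libraries they gave -0.40, -0.51 and 0.42 for miR-450a and -0.32, -0.07 and 0.30 for miR-450b. Whether libraries of different groups share a batch, under equal or unequal numbers, was not tested. With the replicate block miR-424 lost its call for miR-450a against empty vector cells (1.02, limma adjusted p = 0.0603), miR-9* lost its call for miR-450b against empty vector cells (-1.04, limma adjusted p = 0.0512) and miR-363 gained one for miR-450a against miR-450b cells (-1.35), and no other named call changed. The number of mature rows called for miR-450a against empty vector cells was 225, with 341 without a filter and 137 at a mean of at least 100 RPM. At that mean it was 38 for miR-450b against empty vector cells (59 as reported), 140 for miR-450a against miR-450b cells (245), and 125 for precursors in that last comparison (190). Leaving out libraries gave 193 to 230.0, 47 to 70.0 and 203 to 263 mature calls for miR-450a against empty vector, miR-450b against empty vector and miR-450a against miR-450b cells. miR-133b passed in the limma fit with no filter, an alternative chosen after seeing the data, at -0.88 and -0.81 for miR-450a and miR-450b against empty vector cells. Signs turned with scaling for miR-214-3p in miR-450b against empty vector cells (0.13) and for miR-27b (-0.12) and miR-378 (-0.044) in miR-450a against miR-450b cells, and the cause was not tested. On leaving out libraries, changes in miR-450b against empty vector cells ranged over -0.26 to 0.12 for miR-214-3p, -0.11 to 0.12 for miR-27b and -0.0061 to 0.11 for miR-503. The log2 ratio of miR-1 to miR-133a ranged over -0.24 to 0.65 for miR-450a against empty vector cells and -0.67 to 0.093 for miR-450a against miR-450b cells. With the depth unknown, values of a few RPM or less, such as those of miR-206, carry no counting error that could be given.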
